A study of Mus musculus with 7 samples.

Results

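Toll-like receptor transcripts were followed in CD8+ T cells exposed to vesicles of healthy or leukemic spleens, by reading 10 genes by symbol from a count table of 55367 genes. These were 7 receptors (*Tlr1*, *Tlr2*, *Tlr4*, *Tlr6*, *Tlr7*, *Tlr9*, and *Tlr12*), the adaptor *Myd88*, the chaperone *Unc93b1*, and the ubiquitin ligase *Peli2*. All 10 symbols were in the table, and 8 passed the minimum for testing, on average 5 counts or more in a library. *Tlr4* and *Tlr9* fell short of it and are described by their counts alone.

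The T cells came from spleens of Foxp3 YFP/cre mice, which carry a fusion of YFP and Cre in the *Foxp3* locus, and this strain was shared by all 7 libraries. The cells of 4 libraries (CD8_EV_Ctrl) received control EVs, the HCME-sEVs, which are small extracellular vesicles from the spleen microenvironment of healthy mice. Leukemia EVs were given to the cells of the other 3 (CD8_EV_TCL1). These LME-sEVs were prepared from spleens of Eμ-*TCL1* mice, in which regulatory elements of the immunoglobulin heavy chain drive human TCL1 in B cells, so that a B-cell leukemia resembling chronic lymphocytic leukemia arises. According to the labels, exposure lasted 48 hours at 100 μg/mL in both groups, and the methods describe stimulation of cultured CD8+ T cells through CD3 and CD28 with IL2. The methods, however, set vesicle amounts by what each kind of spleen holds, so whether the dose was equal cannot be told from the sources. The group sizes and every direction below follow the labels, whereas a legend of the study gives the sizes the other way round. By default the study used young adult mice, and the labels give no age. Nothing states whether the libraries of a group came from separate animals or vesicle preparations, so p-values measure the spread between these libraries, which may be technical.

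Toll-like receptors are pattern recognition receptors that sense molecules of microbes, and in some settings nucleic acids of the host. One branch sits at the cell surface, where TLR2 pairs with TLR1 or TLR6 to bind lipopeptides and TLR4 binds lipopolysaccharide. The other works in endosomes, where TLR7 senses single-stranded RNA, TLR9 senses unmethylated CpG DNA, and mouse TLR12 senses a parasite profilin. UNC93B1 escorts the endosomal receptors out of the endoplasmic reticulum. MyD88 then links most of the receptors, through their shared TIR domain, to IRAK kinases, and Pellino proteins such as PELI2 attach ubiquitin in the complexes that IRAK kinases form. In T cells, these receptors are known mainly as costimulatory inputs beside the antigen receptor.

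Counts came from the 3′ ends of polyadenylated transcripts, with copies made by PCR collapsed by unique molecular identifiers. A level is given in CPM, counts scaled to a library of 1000000 with trimmed mean of M values (TMM) factors. Because each transcript is read once at its end, CPM can be set side by side between genes without a correction for length, although capture at the 3′ end differs between genes. Totals ran from 3689831 to 5030522 counts per library, and a level of 3 counts, taken as the smallest that can be shown, equals 0.582 to 0.807 CPM. This floor, the intervals of pooled counts, and the intervals of shares cover counting error only, whereas those of log2 fold changes come from the fit and include the spread between libraries. T-cell markers were abundant: *Cd3d*, *Cd3e*, *Cd3g*, *Cd8a*, *Cd8b1*, *Trac*, *Lck*, and *Cd2* together held 2229 to 2812 CPM, whereas *Cd4* and *Foxp3* together reached at most 0.582 CPM.

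Of the 8 genes tested, *Tlr7* fell and *Unc93b1* and *Peli2* rose with LME-sEVs. These 3 had a false discovery rate (FDR, adjusted after Benjamini and Hochberg over 12623 genes) under 0.05 in the quasi-likelihood test of edgeR, which gave every FDR below unless another test is named. That threshold was passed by 8.96% of all tested genes, 3.75% in the higher and 5.21% in the lower direction. *Tlr7* and *Peli2* were also differentially expressed genes (DEG), with a log2 fold change beyond 1 in either direction, as were 1.28% of tested genes (0.626% higher and 0.658% lower). For the same 3 genes the levels of LME-sEV and HCME-sEV libraries were apart, without overlap, which held for 20.3% of tested genes (9.49% with LME-sEVs above and 10.8% with LME-sEVs below). The median log2 fold change of the 8 genes was -0.07, beside 0.01 over all tested genes. The 10 genes were put together with results of these libraries known, so these counts describe them and do not set them apart.

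The promoters of 3 genes are shown: *Peli2* rose, *Myd88* and *Tlr2* passed no threshold, and both of the latter hold a motif of an immune transcription factor. For *Tlr7* and *Unc93b1*, the other genes called, no promoter was found. Each run is the 250 bases before the RefSeq transcription start on GRCm38.p6, 5′ to 3′ on the strand of the gene. Capitals mark motif matches.
Peli2, chr14:48120619-48120868, plus strand: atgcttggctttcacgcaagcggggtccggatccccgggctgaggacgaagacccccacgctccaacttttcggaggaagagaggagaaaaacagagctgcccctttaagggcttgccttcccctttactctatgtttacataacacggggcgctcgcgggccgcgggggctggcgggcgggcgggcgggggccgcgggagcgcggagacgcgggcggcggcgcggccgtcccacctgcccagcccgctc
Myd88, chr9:119340019-119340268, minus strand: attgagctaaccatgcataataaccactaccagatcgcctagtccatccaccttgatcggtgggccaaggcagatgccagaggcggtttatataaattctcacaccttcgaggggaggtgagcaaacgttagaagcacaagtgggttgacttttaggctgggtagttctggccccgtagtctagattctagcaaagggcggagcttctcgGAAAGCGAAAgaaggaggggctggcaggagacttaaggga
Tlr2, chr3:83841609-83841858, minus strand: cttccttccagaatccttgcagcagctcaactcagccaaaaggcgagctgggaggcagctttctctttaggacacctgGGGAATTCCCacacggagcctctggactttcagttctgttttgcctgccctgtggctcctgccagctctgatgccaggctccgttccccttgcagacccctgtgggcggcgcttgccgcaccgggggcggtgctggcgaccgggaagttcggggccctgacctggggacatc
RefSeq promoters were found for 7 of the 10 genes, in 9 windows, and not for *Tlr4*, *Tlr7*, or *Unc93b1*. Searched on both strands, with motifs chosen after these windows had been seen, were the core of the interferon-stimulated response element (GAAA, any 2 bases, GAAA), 2 κB sites bound by NF-κB (GGGA, any base, TTTCC, and the palindrome of GGGAA followed by TTCCC), GAGGAAGT (bound by PU.1), TGANTCA (bound by AP-1), CACGTG (an E-box), and TGACGTCA (the cAMP response element). The *Myd88* window holds an interferon-response core that begins 40 bases before the start, and 2.98% of 32851 promoter windows hold this core. This window lies inside the GENCODE span of *Myd88*, downstream of the 5′ end annotated there. In the *Tlr2* window the palindromic κB site begins 172 bases before the start, and 0.0335% of windows hold it. The *Peli2* window holds none of the 7 motifs and is rich in GC, at 69.2% against a median of 52.4%. Of the other windows, those of *Tlr1* hold CACGTG (6.02% of windows) and GAGGAAGT (2.44%), one of *Tlr6* holds 2 overlapping interferon-response cores, and that of *Tlr9* holds TGACTCA (6.75% of windows for TGANTCA). A match describes letters and not a bound site.

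*Tlr7* (chrX:167304929-167330558, minus strand, GENCODE vM21 on GRCm38, as for all positions here) was the receptor that moved. It stood at 4.82, 8.36, 6.94, and 6.98 CPM in HCME-sEV libraries 1 to 4 and at 3.77, 2.02, and 1.75 CPM in LME-sEV libraries 1 to 3. All LME-sEV libraries were below all HCME-sEV libraries, with LME-sEV library 1 and HCME-sEV library 1 nearest to each other. The counts were 20, 33, 26, and 30 against 14, 9, and 9. The log2 fold change was -1.47 with a 95% interval from -2.15 to -0.79 (FDR = 0.00743, edgeR), and the two-sided exact permutation test over 35 splits gave p = 0.0286, the smallest this design allows. Pooled over libraries, the level with LME-sEVs was 0.356 times that with HCME-sEVs (exact interval 0.232 to 0.532). Without LME-sEV library 2 or LME-sEV library 3 the FDR rose to 0.0558 and 0.0649, with log2 fold changes of -1.35 and -1.24. In bulk libraries such as these, fewer cells of a type and less RNA per cell cannot be told apart.

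**Figure D1:**
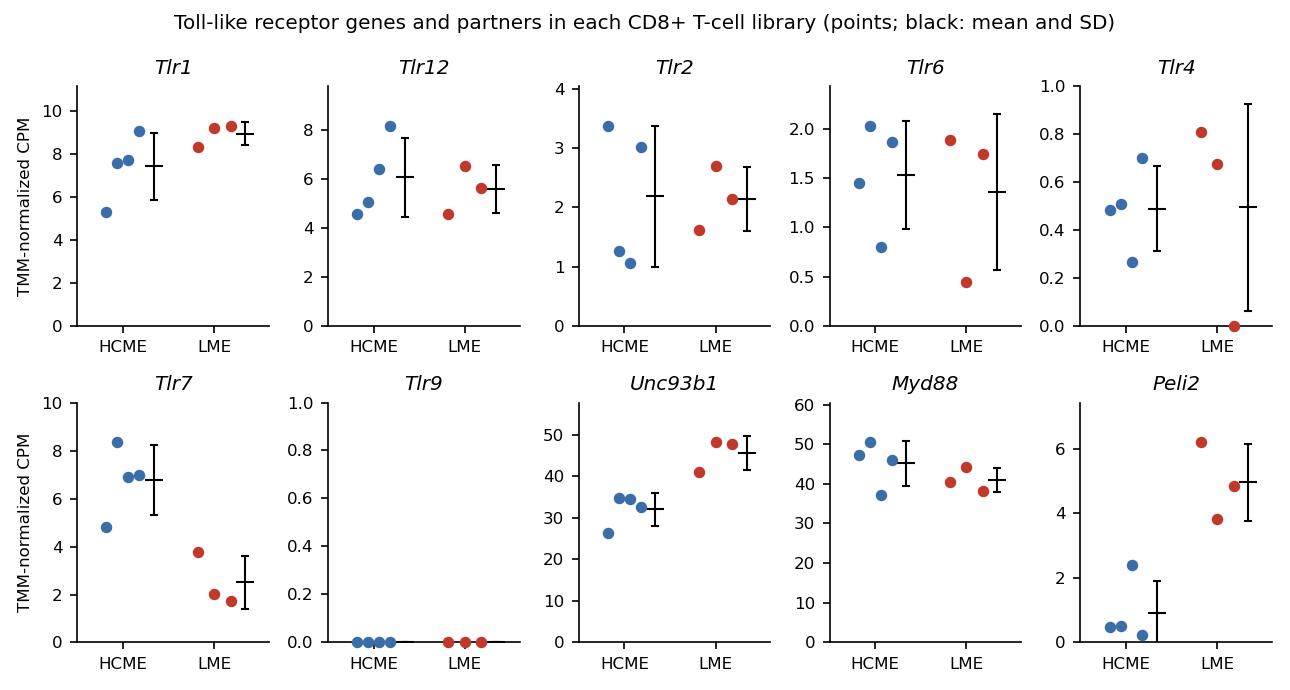
Level of each of the 10 genes in TMM-normalized CPM (linear axes from 0, each panel with its own scale) in the 4 HCME-sEV libraries (blue) and 3 LME-sEV libraries (red), each point a library, with the mean and SD of the group in black (for *Peli2* with HCME-sEVs the bar is cut at 0). *Tlr7* was lower and *Unc93b1* and *Peli2* were higher in all 3 LME-sEV libraries, *Tlr9* was at 0 in all 7, and the groups overlapped for the others.

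Among the other receptors of endosomes, *Tlr9* (chr9:106222598-106226883, plus strand) had 0 counts in all 7 libraries, which allows a level of up to 0.582 to 0.807 CPM. *Tlr3*, the receptor for double-stranded RNA, had at most 1 count, *Tlr8* at most 3, and *Tlr13* at most 1 in any library, and *Tlr11* had 0 throughout. *Tlr12* (chr4:128615443-128618619, minus strand), by contrast, was measured in every library. It had 4.58, 5.07, 6.40, and 8.15 CPM with HCME-sEVs and 4.57, 6.52, and 5.62 CPM with LME-sEVs. The groups overlapped, and the log2 fold change of -0.11 (95% interval -0.66 to 0.44, FDR = 0.854, edgeR) did not pass the test. *Tlr7* and *Tlr12* were thus the endosomal receptors with levels above the floor, and their intervals did not overlap.

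Of the surface receptors, *Tlr1* (chr5:64924679-64933563, minus strand) had the highest mean level. It was at 5.30, 7.60, 7.74, and 9.08 CPM with HCME-sEVs and at 8.34, 9.21, and 9.31 CPM with LME-sEVs, and HCME-sEV library 4 lay among the LME-sEV libraries. Its log2 fold change was 0.27 (95% interval -0.17 to 0.72, FDR = 0.491, edgeR). *Tlr6* (chr5:64952031-64960097, minus strand), the neighbor of *Tlr1* across 18467 bases, was counted 2 to 9 times per library. Its mean was 1.53 ± 0.55 CPM (SD, n = 4) under HCME-sEVs, against 1.36 ± 0.79 CPM (SD, n = 3) under LME-sEVs. No near-identical 3′ end was found between these paralogs or for any other of the 10 genes.

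*Tlr2* (chr3:83836272-83841767, minus strand) encodes the partner of both. Its levels were 3.37, 1.27, 1.07, and 3.03 CPM in HCME-sEV libraries 1 to 4, so that libraries 1 and 4 held more than the whole LME-sEV group, at 1.61, 2.70, and 2.13 CPM, and libraries 2 and 3 held less. The log2 fold change of *Tlr2* (-0.03, 95% interval -0.96 to 0.89, FDR = 0.980, edgeR) leaves room for nearly 1 log2 unit in either direction. That of *Tlr6* (-0.19, 95% interval -1.27 to 0.89, FDR = 0.874, edgeR) leaves room for a fall beyond 1 log2 unit. *Tlr4* (chr4:66827584-66930284, plus strand) had 0 to 3 counts in each library, within the floor, and its co-receptor *Cd14* had at most 1. *Tlr5*, the flagellin receptor, had 0 counts in every library.

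Counted together, the 12 mouse receptor genes took 79 to 129 counts per library. *Tlr7* made up 23.3%, 33.7%, 28.9%, and 23.3% of them in HCME-sEV libraries 1 to 4 and 17.7%, 9.18%, and 8.41% in LME-sEV libraries 1 to 3. The 95% Wilson intervals of the share ran from 15.6% to 43.5% over the HCME-sEV libraries and from 4.49% to 27.6% over the LME-sEV libraries, and that of LME-sEV library 1 overlapped those of all HCME-sEV libraries. The interval of LME-sEV library 2 (4.91% to 16.5%) overlapped that of HCME-sEV library 1 (15.6% to 33.2%). The share of *Tlr1* ran from 25.6% to 32.2% with HCME-sEVs and from 39.2% to 44.9% with LME-sEVs. Without *Tlr7*, the other 11 receptors summed to 18.1 ± 3.32 CPM (SD, n = 4) and 18.8 ± 1.27 CPM (SD, n = 3), a difference smaller than the spread between libraries.

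**Figure D2:**
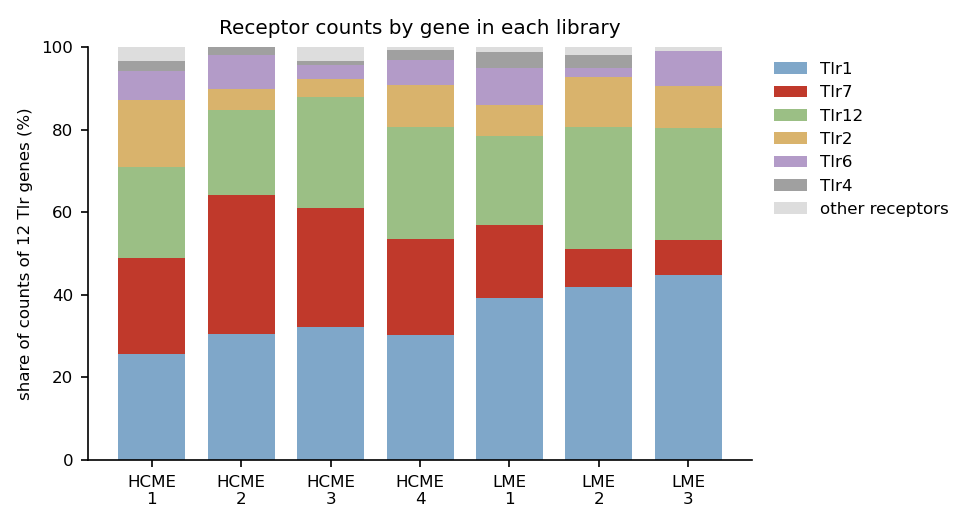
Share of each receptor gene among the counts of 12 *Tlr* genes (percent, stacked bars) in the 4 HCME-sEV and 3 LME-sEV libraries; *Tlr3*, *Tlr5*, *Tlr8*, *Tlr9*, *Tlr11*, and *Tlr13* are drawn together in light gray. The share of *Tlr7* (red) was 23.3% or more with HCME-sEVs and 17.7% or less with LME-sEVs.

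*Unc93b1* (chr19:3935186-3949340, plus strand) encodes the escort of these endosomal receptors and moved opposite to *Tlr7*. It stood at 26.3, 34.7, 34.4, and 32.6 CPM in HCME-sEV libraries 1 to 4 and at 40.9, 48.1, and 47.7 CPM in LME-sEV libraries 1 to 3. Each LME-sEV library was above each HCME-sEV library, and HCME-sEV library 1 was the lowest of all. The log2 fold change of 0.52 (95% interval 0.27 to 0.76, FDR = 0.00915, edgeR) lay inside the cutoff of 1, so *Unc93b1* rose without being a DEG, and the exact permutation p was 0.0286. Leaving out LME-sEV library 2 or LME-sEV library 3 brought the FDR to 0.0660 and 0.0582, with log2 fold changes of 0.48 in both fits. For each *Tlr7* count the HCME-sEV libraries held 4.15 to 5.45 *Unc93b1* counts, whereas LME-sEV libraries 1 to 3 held 10.9, 23.8, and 27.3.

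The list of chaperones and co-receptors held 10 tested genes of 11, of which *Unc93b1* rose and *Hsp90b1* fell. *Hsp90b1* encodes the endoplasmic reticulum chaperone gp96, which folds many Toll-like receptors and integrins. Its level was 692 ± 19.9 CPM (SD, n = 4) under HCME-sEVs and 545 ± 33.97 CPM (SD, n = 3) under LME-sEVs, a log2 fold change of -0.34 (FDR = 0.00567, edgeR), and without LME-sEV library 2 its FDR was 0.0611. Its cochaperone *Cnpy3* had a log2 fold change of -0.13 (FDR = 0.531, edgeR). *Slc15a4*, a lysosomal transporter needed for TLR7 and TLR9 responses, was at 0.00 (95% interval -0.30 to 0.29) on the log2 scale.

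*Myd88* (chr9:119335934-119341411, minus strand) was the most abundant of the 10 genes with HCME-sEVs. Its levels were 47.2, 50.4, 37.1, and 46.1 CPM in HCME-sEV libraries 1 to 4 and 40.4, 44.3, and 38.2 CPM in LME-sEV libraries 1 to 3. HCME-sEV library 3 was below the whole LME-sEV group, and the groups overlapped. The log2 fold change was -0.15 (95% interval -0.39 to 0.09, FDR = 0.491, edgeR). *Acaa1a* on the opposite strand shares exon sequence with *Myd88* but not with the last exon of its longest transcript.

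The other TIR adaptors passed no threshold either. *Tirap*, which bridges MyD88 to TLR2 and TLR4, had a log2 fold change of 0.16, and *Ticam1* (TRIF), the adaptor of TLR3 and TLR4, had 0.15. *Ticam2* (TRAM) was at 0.09, with an FDR of 0.706 or more for all 3 in edgeR. *Sarm1*, a TIR protein with NADase activity, was under the minimum for testing, with at most 5 counts.

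*Peli2* (chr14:48120823-48281575, plus strand) changed most among the 8 tested genes. It had 0.48, 0.51, 2.40, and 0.23 CPM in HCME-sEV libraries 1 to 4 and 6.19, 3.82, and 4.85 CPM in LME-sEV libraries 1 to 3. HCME-sEV library 3 stood well above the others of its group and still below every LME-sEV library. The counts behind these levels were 2, 2, 9, and 1 against 23, 17, and 25, so that 3 HCME-sEV libraries lay within the floor of 3 counts. The minimum average of 5 counts was met only through the LME-sEV libraries, so the place of *Peli2* among tested genes rests on the group where it was high. Pooled counts of 14 and 65 gave a level 5.62 times as high with LME-sEVs (exact interval 3.12 to 10.9). The log2 fold change was 2.45 (95% interval 1.42 to 3.48, FDR = 0.00398, edgeR). It ranged from 2.13 to 3.51 when single libraries were left out, the highest value without HCME-sEV library 3, and the FDR was 0.0225 or less each time. The two-sided exact permutation p was 0.0571, since another split of the 7 libraries gave a difference at least as large. The pseudogene *Gm6498* lies in *Peli2* on the same strand, away from the last exon of its longest transcript.

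*Peli1*, the close relative known for restraining T-cell activation, was far more abundant than *Peli2*, at 246 ± 24.3 CPM (SD, n = 4) and 275 ± 11.02 CPM (SD, n = 3), with a log2 fold change of 0.16 (FDR = 0.259, edgeR). *Peli3* was too low to test, with 1 to 7 counts per library. Among the IRAK kinases, on which Pellino proteins act, *Irak2* rose, with 4.40 ± 0.73 CPM (SD, n = 4) under HCME-sEVs and 7.74 ± 1.58 CPM (SD, n = 3) under LME-sEVs, a log2 fold change of 0.83 (FDR = 0.0437, edgeR). That call was lost in 6 of the 7 fits without a single library, all but that without LME-sEV library 1, with an FDR of up to 0.186, and with DESeq2's test (FDR = 0.111). *Irak1* and *Irak4* had log2 fold changes of 0.16 and -0.08, with FDR of 0.259 and 0.744, and *Irak3* had at most 6 counts. The ubiquitin ligases *Traf6* and *Traf3* were at -0.25 and -0.11 on the log2 scale, with FDR of 0.197 and 0.648.

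**Figure D3:**
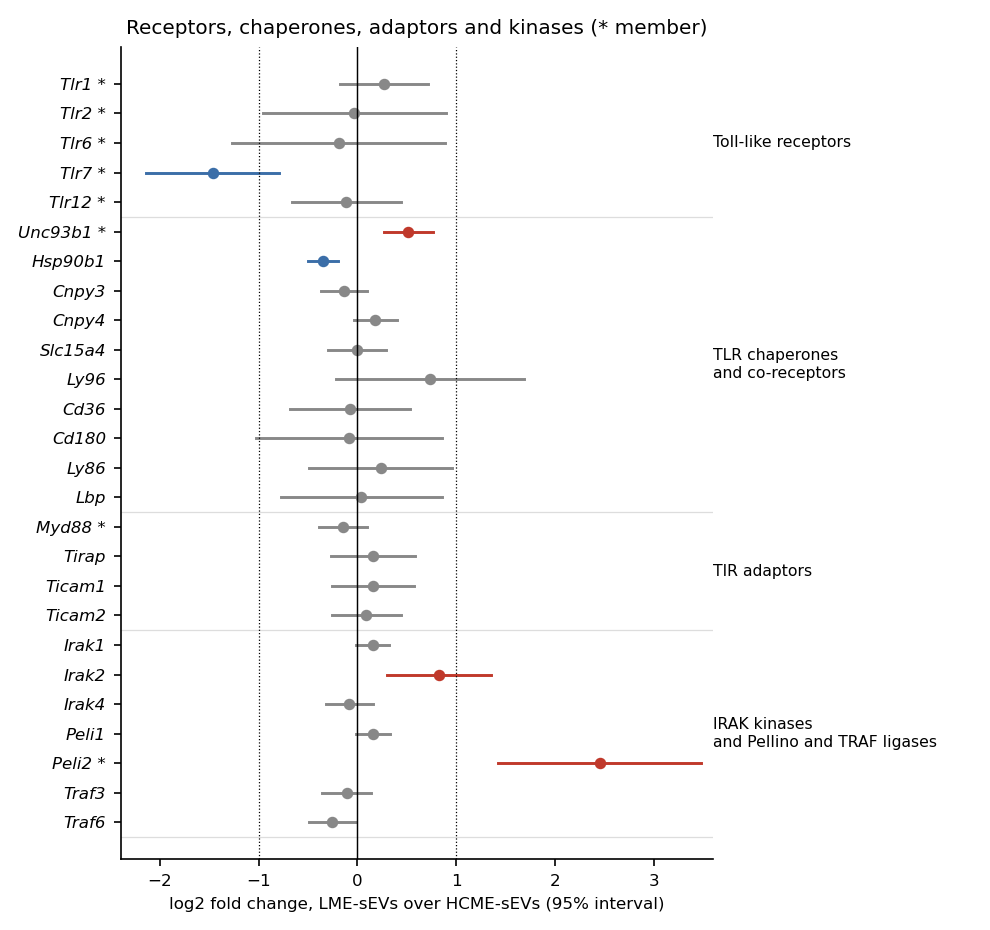
Log2 fold change of LME-sEVs over HCME-sEVs with its 95% interval for each tested receptor, chaperone or co-receptor, TIR adaptor, and IRAK, Pellino, or TRAF gene; asterisks mark the 8 tested genes of the 10, red and blue mark an FDR under 0.05 in the higher and lower direction, gray marks the rest, and dotted lines stand at -1 and 1. *Tlr7* at -1.47 and *Peli2* at 2.45 lie beyond the dotted lines, and *Unc93b1*, *Hsp90b1*, and *Irak2* between them.

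Ordered by mean level with HCME-sEVs, *Myd88* (45.2 CPM) came before *Unc93b1* (32.0 CPM), followed by *Tlr1* (7.43 CPM), *Tlr7* (6.78 CPM), *Tlr12* (6.05 CPM), *Tlr2* (2.18 CPM), *Tlr6* (1.53 CPM), *Peli2* (0.91 CPM), *Tlr4* (0.49 CPM), and *Tlr9* at 0. The libraries of *Tlr1*, *Tlr7*, and *Tlr12* overlapped between neighbors in this order, as did those from *Tlr2* down to *Tlr4*. With LME-sEVs the order opened with *Unc93b1* (45.6 CPM) and *Myd88* (40.9 CPM), whose libraries overlapped. *Tlr7* (2.51 CPM) then stood sixth, below *Tlr12* (5.57 CPM) and *Peli2* (4.95 CPM) and overlapping *Tlr2* (2.15 CPM).

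Genes nearest to *Tlr7* in pattern were sought by the root mean square difference of log2 CPM, centered on the mean of each gene over the 7 libraries, among 9694 genes that averaged 20 counts or more. The 5 nearest were *Fgl2* (0.25), *H1f3* (0.29), *Timp2* (0.31), *Cxcl10* (0.32), and *Gm4951* (0.34). *Fgl2*, a fibrinogen-like protein that T cells can secrete, fell from 36.5 to 16.2 CPM, and the chemokine gene *Cxcl10* fell from 11.8 to 6.06 CPM. For *Peli2* the nearest were *Nebl* (0.45), *Mirt1* (0.58), *Gipc2* (0.59), *Gpr160* (0.61), and *Bst1* (0.63). *Nebl*, which encodes the actin-binding protein nebulette, rose from 8.33 to 31.4 CPM, and *Bst1*, an NAD-consuming ectoenzyme, rose from 3.26 to 19.96 CPM. These distances describe 7 libraries in which the group difference weighs heavily.

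Beyond the 10 genes, lists of the pathway held 98 other genes, of which 78 were tested, 2 rose, 12 fell, and 64 did not pass (17.9% called, beside 8.96% of all tested genes). Without LME-sEV library 2 or 3, 3 and 6 of them fell and 1 rose. Their median log2 fold change was -0.10. The lists were chosen with earlier results of these data known, so the share called describes them and does not set the pathway apart. Interferon-induced genes gave 6 of the 12 that fell, and inflammatory genes that Toll-like receptors induce gave 3 of them and the rise of *Ccl5*. The other calls were *Hsp90b1*, *Irak2*, *Sting1*, and *Zbp1*. The 15 kinases and factors below the receptor complex, among them *Map3k7*, *Chuk*, *Ikbkb*, *Tbk1*, *Irf5*, *Nfkb1*, and *Rela*, all missed the threshold, with a median of -0.04. So did the 8 brakes on the pathway, *Tollip*, *Sigirr*, *Tnfaip3*, and *Nfkbia* among them (median 0.06), and the 5 tested receptors of the IL1 family, which share MyD88 with the Toll-like receptors (median -0.10). Too low to test were *Il1r1* (2, 0, 0, and 1 counts with HCME-sEVs against 0, 0, and 1 with LME-sEVs) and *Il1r2* (0, 0, 1, and 2 against 3, 8, and 10).

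Genes that Toll-like receptors induce in other cells were split. Of 9 tested, *Tnf*, *Ccl4*, and *Cxcl10* fell and *Ccl5* rose, with a median log2 fold change of -0.22. *Tnf* had 43.9 ± 3.70 CPM (SD, n = 4) under HCME-sEVs and 31.5 ± 3.09 CPM (SD, n = 3) under LME-sEVs (log2 fold change -0.48, FDR = 0.0126, edgeR), and the chemokine gene *Ccl5* had 48.2 ± 11.3 CPM and 75.9 ± 6.06 CPM (0.66, FDR = 0.00341). Without LME-sEV library 2 the FDR of *Tnf* was 0.0946 and that of *Cxcl10* 0.0908, and without LME-sEV library 3 that of *Cxcl10* was 0.0951. *Il6*, *Il1b*, *Il12b*, *Ptgs2*, and *Ifnb1* were under the minimum for testing.

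The other sensors of nucleic acids differed in kind from TLR7, being cytosolic. Of 10 tested, 0 rose and 2 fell, *Zbp1* (log2 fold change -0.52, FDR = 0.0119), a sensor of Z-form nucleic acids, and *Sting1* (-0.29, FDR = 0.0471), the adaptor of cGAS (edgeR). The call of *Sting1* was lost in 11 of 14 other settings, 6 of them fits without a single library (FDR up to 0.192), and that of *Zbp1* without LME-sEV library 2 or 3 (FDR = 0.0566 and 0.0585). *Ddx58* (RIG-I) and *Ifih1* (MDA5), sensors of viral RNA, had log2 fold changes of -0.19 and -0.34 without passing the test (FDR = 0.418 and 0.171).

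Interferon-induced genes, which respond to interferons such as those that endosomal receptors induce, had the lowest median of the lists, at -0.76. All 14 tested had a negative log2 fold change, and *Isg15*, *Ifit1*, *Ifit3*, *Usp18*, *Bst2*, and *Rtp4* passed the test. *Isg15*, a ubiquitin-like modifier, stood at 17.3, 27.9, 45.3, and 24.7 CPM in HCME-sEV libraries 1 to 4 and at 9.95, 11.5, and 8.14 CPM in LME-sEV libraries 1 to 3. HCME-sEV library 3 was the highest of its group for *Isg15* and for every other tested gene of the list but *Ifit2*. The 14 negative fold changes are therefore not 14 independent results. The calls of *Isg15* and *Bst2* held in all 14 other settings. Those of *Ifit1*, *Ifit3*, *Usp18*, and *Rtp4* were lost without LME-sEV library 2 or 3, with an FDR of up to 0.148, and 3 of these also without an HCME-sEV library (*Ifit1* without 2 or 3, *Usp18* without 3, and *Rtp4* without 4). *Irf7*, the transcription factor downstream of TLR7, had a log2 fold change of -0.37 (FDR = 0.461, edgeR).

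**Figure D4:**
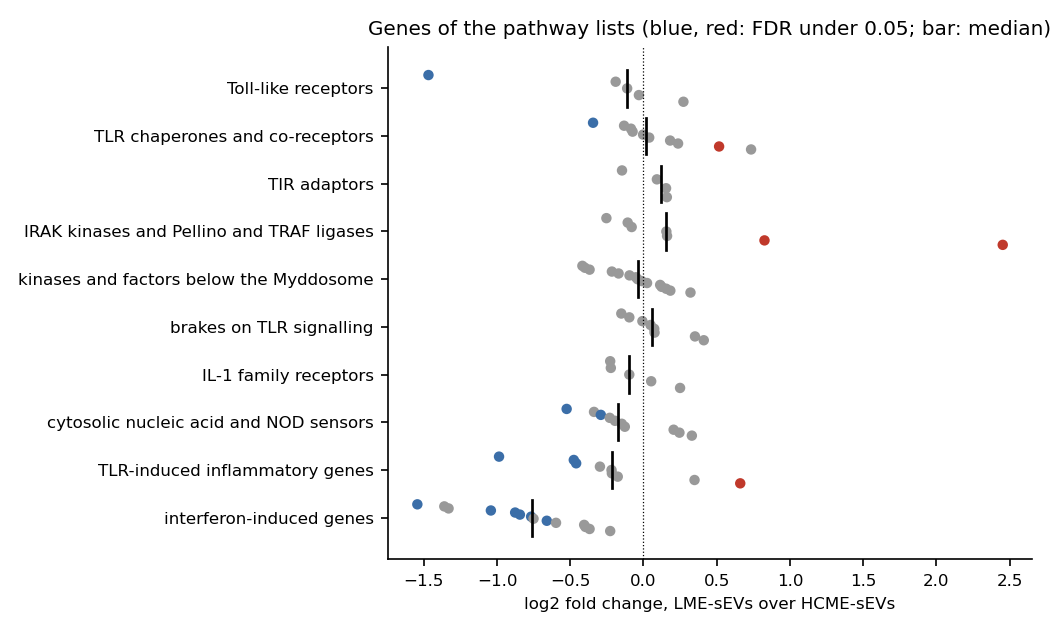
Log2 fold change of each tested gene in the 10 pathway lists (points; red and blue mark an FDR under 0.05 in the higher and lower direction, gray the rest), with the median of each list as a black bar. Interferon-induced genes all lay below 0, with a median of -0.76, and the medians of the other lists lay between -0.22 and 0.16.

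Markers of other cell types with Toll-like receptors were read in the same libraries. The labels name sorting by flow cytometry, and the methods describe negative selection with beads to nearly pure CD8+ T cells, both of which would remove most of these cells. The 16 B-cell markers summed to 270 to 313 CPM with HCME-sEVs and 366 to 397 CPM with LME-sEVs, and 3 of 10 tested rose (*Cd74*, *Ighm*, and *Igkc*) and 0 fell, while *Cd79a*, *Blk*, *Fcrla*, and *Cd22* had at most 3 counts. A positive log2 fold change was found in 9 of the 10, and *Ms4a1* was at -0.38 (FDR = 0.742, edgeR). *Pax5*, too low to test, had 2, 2, 4, and 6 counts with HCME-sEVs and 1 in each LME-sEV library. *Ighm* (241 and 314 CPM) made up most of the sum, and the other 15 markers summed to 50.1 to 53.0 CPM and 66.7 to 78.4 CPM. Whether these sums follow the number of B cells was not tested. Plasmacytoid dendritic cells are a main site of *Tlr7* expression: their 7 markers summed to 454 to 497 CPM and 425 to 496 CPM, 0 of 5 tested passed, and *Irf8*, which activated T cells also express, made up at least 92.9% of the sum in each library. The defining marker *Siglech* had at most 1 count. The 14 macrophage and monocyte markers summed to 11.2 to 14.4 CPM with HCME-sEVs and 15.7 to 21.8 CPM with LME-sEVs, higher without overlap. Of 4 tested, 0 were called and 3 had a positive log2 fold change, with *Cybb* at -0.05. Among those too low to test, *Itgam* had 0, 0, 0, and 1 counts with HCME-sEVs and 6, 8, and 6 with LME-sEVs. *Tyrobp* had 1, 7, 0, and 1 against 12, 6, and 6. *Spi1* went the other way in its mean, with 1, 5, 5, and 4 against 3, 2, and 3, and *C1qa* and *C1qc* were at 0. The 6 dendritic-cell markers summed to 77.6 to 109 CPM with HCME-sEVs and 44.0 to 57.4 CPM with LME-sEVs. That difference was carried by *Batf3*, which activated T cells also express and which fell (79.1 against 40.2 CPM). Without *Batf3* the sum was 7.22 to 9.64 CPM and 9.69 to 12.4 CPM, *Zbtb46* had a log2 fold change of 0.45 without passing the test, and *Flt3*, *Xcr1*, and *Clec9a* had at most 2 counts.

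The 8 neutrophil markers, of which 0 could be tested, summed to 0.241 to 1.014 CPM with HCME-sEVs and 1.12 to 4.04 CPM with LME-sEVs, higher without overlap, with *Elane* at 0. Sums of basophil and mast-cell markers (5.54 to 34.7 CPM against 25.0 to 36.9 CPM) and of erythroid and platelet markers (71.8 to 175 CPM against 150.3 to 197 CPM) overlapped between groups, with 2 of 5 and 3 of 6 tested markers higher. The 4 NK-cell markers summed to 177.6 to 199.7 CPM and 163 to 177 CPM, carried by *Eomes*, which CD8+ T cells share, and *Ncr1* had at most 1 count. Of the 8 CD8+ T-cell markers, 2 rose and 0 fell, with sums of 2229 to 2428 CPM and 2499 to 2812 CPM. The part of these other cell types in the fall of *Tlr7* and the rise of *Unc93b1* and *Peli2* was not tested.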

How the data were processed

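The authors deposited counts per gene symbol, without normalization or filter. Per the submitters' processing notes, reads were trimmed with cutadapt 2.10, aligned with STAR 2.5.3a to GRCm38, deduplicated with UMI-tools 1.0.0, and counted with featureCounts of Subread 2.0.0. The annotation release and the strand setting are not given in the sources used here.

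From these counts, genes averaging 5 counts or more were normalized by TMM and tested with edgeR 4.0.16 (glmQLFit, glmQLFTest; R 4.3.3) without covariates, with Benjamini-Hochberg adjustment. Standard errors were derived from the F statistic. Log2 CPM used a prior count of 2. Permutation tests over 35 splits were two-sided and exact. The fit was tested on simulated data beforehand. Libraries of a group differed by more than counting noise (chi-square per degree of freedom 2.12 or more). 3′ ends of 300 bases were compared with blast 2.17.0 (95% identity, 200 bases).

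The members and gene lists were chosen with earlier results of these data known. Named were all members, every other Toll-like receptor and TIR adaptor, pathway genes with an FDR under 0.05, and the 5 genes nearest in pattern to each DEG member; pathway genes named below the threshold were picked afterwards. *Cgas* and *Sting1* were matched through synonyms. Alternatives covered normalization, filter, test, replicate block, and single libraries.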

Additional observations from a re-analysis of the deposited data

Results flagged for a closer look

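In each of 24 genes, the highest and lowest of the 4 HCME-sEV libraries were set against the rest by Dixon's ratio, the distance to the nearest library divided by the range of all 4. The ratio passed its 95% critical value in 2 genes, where chance gives 1.2 (1 in 20). *Peli2* was highest in HCME-sEV library 3, at 2.40 CPM with a ratio of 0.874. *Ccl4* was highest in HCME-sEV library 1, at 309 CPM with a ratio of 0.890. Groups of 3 libraries, such as that with LME-sEVs, were not examined in this way.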

How the results depend on the processing

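*Peli2* remained a DEG in all 14 other settings. As in the main fit, it met every filter but that of 1 count only through the LME-sEV libraries. Those settings therefore repeat the same selection. The calls of *Tlr7* and *Unc93b1* held in 12 of 14 and were lost without LME-sEV library 2 or 3. Over the fits without single libraries, log2 fold changes ran from -1.83 to -1.24 for *Tlr7*, from 0.43 to 0.59 for *Unc93b1*, and from 2.13 to 3.51 for *Peli2*. In the same fits, members called ran from 1 to 2 (higher) and from 0 to 1 (lower), lower DEG members from 0 to 1, other pathway genes called from 1 to 2 (higher) and from 3 to 13 (lower), all genes with an FDR under 0.05 from 391 to 1305, and DEG from 83 to 184, against 1131 and 162 with all libraries. The lowest of these counts came without LME-sEV library 2 (without LME-sEV library 3 they were 458 and 90, and without HCME-sEV library 2 the genes under 0.05 numbered 723), and leaving out a library also leaves fewer samples. With DESeq2's test, DEG numbered 105 and 1 other pathway gene was higher, and the cause was not tested. Of the 5 members that passed no threshold, *Tlr1* and *Myd88* kept their sign in all 14 settings and 3 changed it. *Tlr2* was at 0.24 with the replicate block and, without single libraries, between -0.24 and 0.25. *Tlr12* was at 0.057 with the block and between -0.23 and 0.073 without single libraries, and *Tlr6* was between -0.46 and 0.22. DESeq2's size factors and the upper quartile shifted the median of all genes by at most 0.02 log2 units and changed no member's call.

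Libraries with the same replicate number correlated in their deviations from the group means at 0.07, 0.15, and 0.03 for numbers 1 to 3, so the numbers were not taken to pair them. HCME-sEV libraries 1 and 2 correlated best with their own number, whereas HCME-sEV library 3 correlated better with LME-sEV library 1 (0.08) than with its own. Different numbers correlated at -0.21 to 0.08, and these values do not settle whether the numbers mark pairs. With the replicate number as a block, 1454 genes had an FDR under 0.05 and 179 were DEG, and the calls of the 8 tested members stayed as without it. Counts of 0 to 3 per library leave *Tlr4*, *Tlr9*, and 3 HCME-sEV libraries of *Peli2* at the limit of this depth.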
